A study of Mus musculus with 17 samples.

Results

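Cytochrome P450 genes were followed in periprostatic fat, the adipose tissue next to the prostate, in male C57BL/6J mice fed fatty or lean diets. The members were all genes whose symbol is Cyp followed by a family number, a subfamily letter and a gene number, except Cyp2f2 and Cyp2e1. This gave 95 genes of the 22180 measured, among them 4 annotated as pseudogenes. The choice went by symbol, and it was made with earlier results of these data known. Symbols without such a form, such as Cyp51, were outside the members.

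Each of 17 mice gave 1 Affymetrix Mouse Gene 2.0 ST array. In the HFD_CR group, 5 mice ate a diet with 60 kcal% fat freely for 12 weeks and then received 70% of what the unrestricted high-fat mice ate, a 30% calorie restriction, for 7 weeks. The 6 HFD mice had the same diet without restriction throughout, and the 6 LFD mice ate 10 kcal% fat without restriction. All diets began at 6 weeks of age, tissue was taken at 25 weeks, and the labels name no allele or transgene. There was no lean group under restriction, so restriction was seen only on the high-fat diet. Restricted mice had measured daily portions and the others ate freely. The hour of the last meal before harvest is not given in the sources used here.

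P450 enzymes are heme proteins that insert an oxygen atom into their substrate with electrons passed on from NADPH. In the endoplasmic reticulum the electrons come through cytochrome P450 oxidoreductase and cytochrome b5, and in mitochondria through ferredoxin. Some members make or break down a defined hormone, sterol, vitamin or retinoid, while the large CYP2, CYP3 and CYP4 families of rodents act on drugs, dietary compounds and fatty acids, mostly in liver, kidney and gut. Fat expresses a smaller set, and white fat holds macrophages, progenitors and vessels beside its adipocytes.

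Promoters are shown for members with and without calls in the results. Cyp1b1 and Cyp1a1 are classical targets of the aryl hydrocarbon receptor (AhR). Cyp1b1 was called here, and Cyp1a1, with a mean signal below the median of every array, was not. Cyp27a1 and Cyp2r1 moved in opposite directions with diet and with restriction. Each line gives the RefSeq sequence of build GRCm38.p6 from 250 bases before to 50 bases after the annotated start, 5′ to 3′ on the strand of the gene. Capitals mark matches on either strand to 4 motifs. GCGTG is the core of the site of AhR and its partner ARNT. TATAAA is bound by the general initiation factor. GGGCGG is bound by Sp1-type factors, and AGGTCA is the core of many nuclear receptor sites.
Cyp1b1: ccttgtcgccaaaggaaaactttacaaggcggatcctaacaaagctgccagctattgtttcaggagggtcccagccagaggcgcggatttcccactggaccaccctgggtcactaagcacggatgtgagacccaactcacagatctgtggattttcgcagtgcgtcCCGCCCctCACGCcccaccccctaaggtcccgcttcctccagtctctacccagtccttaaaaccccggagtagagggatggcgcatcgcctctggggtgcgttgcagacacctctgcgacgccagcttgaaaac
Cyp1a1: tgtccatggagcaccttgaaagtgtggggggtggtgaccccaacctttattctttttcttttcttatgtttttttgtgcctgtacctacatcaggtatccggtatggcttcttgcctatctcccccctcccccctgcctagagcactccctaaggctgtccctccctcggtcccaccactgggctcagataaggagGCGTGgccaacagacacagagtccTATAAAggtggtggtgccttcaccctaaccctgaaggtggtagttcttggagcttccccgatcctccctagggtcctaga
Cyp27a1: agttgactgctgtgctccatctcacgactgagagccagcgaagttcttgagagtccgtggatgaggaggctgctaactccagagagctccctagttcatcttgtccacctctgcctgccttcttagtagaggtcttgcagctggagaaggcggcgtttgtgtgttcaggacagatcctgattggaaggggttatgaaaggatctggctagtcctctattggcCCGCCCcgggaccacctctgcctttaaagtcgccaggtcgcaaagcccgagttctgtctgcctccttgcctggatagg
Cyp2r1: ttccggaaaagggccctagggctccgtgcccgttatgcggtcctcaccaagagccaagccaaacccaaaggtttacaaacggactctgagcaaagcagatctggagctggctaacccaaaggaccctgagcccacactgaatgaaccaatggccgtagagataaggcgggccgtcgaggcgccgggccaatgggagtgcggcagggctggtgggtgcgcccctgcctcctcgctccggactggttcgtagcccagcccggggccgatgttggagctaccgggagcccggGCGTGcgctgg
These windows lie at chr17:79715012-79715311 on the minus strand for Cyp1b1, chr9:57697363-57697662 on the plus strand for Cyp1a1, chr1:74713285-74713584 on the plus strand for Cyp27a1 and chr7:114562923-114563222 on the minus strand for Cyp2r1. Counted from 1 at the 5′ end, GCGTG was found at positions 175 to 179 of the Cyp1b1 window on the opposite strand, at 197 to 201 of the Cyp1a1 window and at 290 to 294 of the Cyp2r1 window. TATAAA was found in the Cyp1a1 window at 221 to 226. GGGCGG was found on the opposite strand of the Cyp1b1 window at 167 to 172 and of the Cyp27a1 window at 223 to 228. No capitals overlap between motifs. Promoters of 69 of the 95 members were in the RefSeq table used, and those of Cyp2d22, Cyp39a1 and Cyp4f17 were not. Among the 69, 16 held GCGTG (23.2%, against 32.4% of all 32851 promoters), 27 held TATAAA (39.1%, against 13.6%), 17 held GGGCGG (24.6%, against 35.7%) and 19 held AGGTCA (27.5%, against 16.3%). Members are counted here as genes and the background as promoters, so the shares set side by side are in unlike units. A match is a run of letters and no evidence of binding.

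All values are log2 array signals, and 1 log2 unit is a factor of 2. A difference is given as log2 difference ± SE from limma, with p adjusted by Benjamini-Hochberg over the 22180 genes, and a gene is said to rise or fall where this adjusted p was under 0.05. The number of arrays limits the precision. Signals of different probe sets are not on a common scale, so levels are compared between mice and not between genes. An array's median signal lay between 7.03 and 7.15. Of the members, 23 had a mean signal above 7.15 and 72 did not. For those 72 the files give no detection call, and a signal near or below the median cannot be taken as expression. Within groups the members were steady, with an SD of at most 0.25 in all 3 groups for 71 of 95.

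The tissue changed in its cell makeup or cell state between the groups, and in bulk RNA fewer cells of a type and less RNA per cell cannot be told apart. The mean signal of 11 macrophage markers was 10.11 to 10.76 in HFD_CR fat, 11.16 to 11.68 in HFD fat and 9.56 to 10.05 in LFD fat. All 11 rose in HFD against LFD fat, all 11 fell in HFD_CR against HFD fat, and 4 rose in HFD_CR against LFD fat. The mean of 11 adipocyte markers was 12.85 to 13.01 in HFD_CR fat, 12.61 to 12.76 in HFD fat and 12.93 to 13.06 in LFD fat, with 8 lower in HFD than in LFD fat and 7 higher in HFD_CR than in HFD fat. The mean of 8 thermogenic adipocyte markers was 7.24 to 7.84 in HFD_CR fat, 7.47 to 8.06 in HFD fat and 7.71 to 10.16 in LFD fat. The mean of 9 adipose progenitor and fibroblast markers was 10.61 to 11.03 in HFD_CR fat, 11.14 to 11.41 in HFD fat and 10.66 to 10.87 in LFD fat, with 5 higher in HFD than in LFD fat, 3 lower in HFD_CR than in HFD fat and 3 higher in HFD_CR than in LFD fat. The part of these cells in the differences of the P450 genes and of the partner genes described later was not tested. The defining adipocyte markers Adipoq and Plin1 were well above the array median in every group, at means of 11.78 and 12.92 in HFD_CR fat, 11.45 and 12.65 in HFD fat and 11.73 and 12.98 in LFD fat. The mean of 10 hepatocyte markers lay between 6.69 and 7.06 on all arrays, near the array median, and 9 of them passed in no comparison. The exception was Alb, the albumin gene, at 8.74 to 9.73 in HFD_CR, 7.87 to 8.89 in HFD and 9.97 to 10.81 in LFD mice. It fell by 2.36 ± 0.20 in HFD against LFD fat (adjusted p = 7.68e-08), rose by 1.19 ± 0.21 in HFD_CR against HFD fat (adjusted p = 0.000456) and was lower in HFD_CR than in LFD fat (-1.17 ± 0.21, adjusted p = 0.00134). HFD_CR mouse 2, HFD mouse 3 and LFD mice 2 and 3 carried raised markers of skeletal muscle or gland epithelium, HFD_CR mouse 1 raised markers of male germ cells, and LFD mice 3 and 6 raised thermogenic markers. Raised here means a list mean more than 1 log2 unit above that of the median array. The skeletal muscle mean was 0.97 above it in HFD mouse 6 and 0.80 above it in LFD mouse 5. Both fell short of the cutoff and stayed in when arrays high in muscle or gland markers were left out.

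Against the low-fat diet, the high-fat diet changed 16 of the 95 P450 genes, 9 upward and 7 downward. Cyp2c70, Cyp1b1, Cyp4b1, Cyp2r1, Cyp26a1, Cyp2c23, Cyp2b9, Cyp4v3 and Cyp7b1 rose. Cyp2c55 (at 1 of its 2 probe sets, described later), Cyp2d22, Cyp2c39, Cyp3a25, Cyp27a1, Cyp4f14 and Cyp4f17 fell. The share called was 16.8%, against 27.8% of all genes (16.5% higher and 11.3% lower). The median difference was -0.028 over members and -0.003 over all genes. Groups did not overlap for 3 members (3.16%), namely Cyp2c55, Cyp2c70 and Cyp7b1, against 14.3% of all genes. Among the 23 brighter members 8 were called (34.8%, against 41.4% of all genes as bright), and among the 72 dimmer ones 8 (11.1%, against 10.0%). With Cyp2f2 and Cyp2e1 added, 18 of 97 passed, 9 in each direction. At the threshold, Cyp4f17 lay just inside (-0.19, adjusted p = 0.0438) and Cyp2a5 just outside (-0.20, adjusted p = 0.0583).

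Restriction on the high-fat diet changed 4 of 95. Cyp2d22 and Cyp27a1 rose, and Cyp2c70 and Cyp2r1 fell. This was 4.21% of the members, against 19.0% of all genes (7.69% higher and 11.3% lower), with a median difference of -0.013 over members and -0.002 over all genes. Groups did not overlap for 4 members (4.21%), namely Cyp2c70, Cyp2d22, Cyp27a1 and Cyp4v3, against 13.7% of all genes. Of the brighter members 3 of 23 passed (13.0%, against 29.9% of all genes as bright), and of the dimmer ones 1 of 72 (1.39%, against 4.77%). Cyp2c70 lay just inside the threshold (-0.52, adjusted p = 0.00422) and Cyp4v3 just outside it (0.26, adjusted p = 0.0536), so no member had an adjusted p between these values. With Cyp2f2 and Cyp2e1 added, 5 of 97 passed.

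Restricted high-fat mice differed from low-fat mice in 7 of 95. Cyp4b1, Cyp1b1, Cyp4v3, Cyp2c70 and Cyp39a1 rose, and Cyp2c55 and Cyp4f17 fell. This was 7.37%, against 9.08% of all genes (5.80% higher and 3.28% lower), with a median difference of -0.012 over members. Groups did not overlap for 4 members (4.21%), namely Cyp2c55, Cyp4b1, Cyp4v3 and Cyp4f17, against 6.67% of all genes. Of the brighter members 6 of 23 passed (26.1%, against 14.6%), and of the dimmer ones 1 of 72 (1.39%, against 1.93%). Cyp1b1 lay just inside the threshold (0.53, adjusted p = 0.0275) and Cyp2s1 just outside (0.28, adjusted p = 0.0557). With Cyp2f2 and Cyp2e1 added, 8 of 97 passed.

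Over the 3 comparisons together, 17 members were called at least once, 78 in none, and Cyp2c70 in all 3. In size, 87 of 95 members differed by at most 0.5 in every comparison (91.6%), as did 91.2% of all genes. Among the brighter members these were 18 of 23 (78.3%, against 86.8% of all genes as bright), and among the dimmer ones 69 of 72 (95.8%, against 96.8%). The comparisons share mice: HFD is in the first and the second, HFD_CR in the second and the third, and LFD in the first and the third. Opposite signs in the first and the second are therefore given as values side by side and not as separate evidence.

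**Figure D1:**
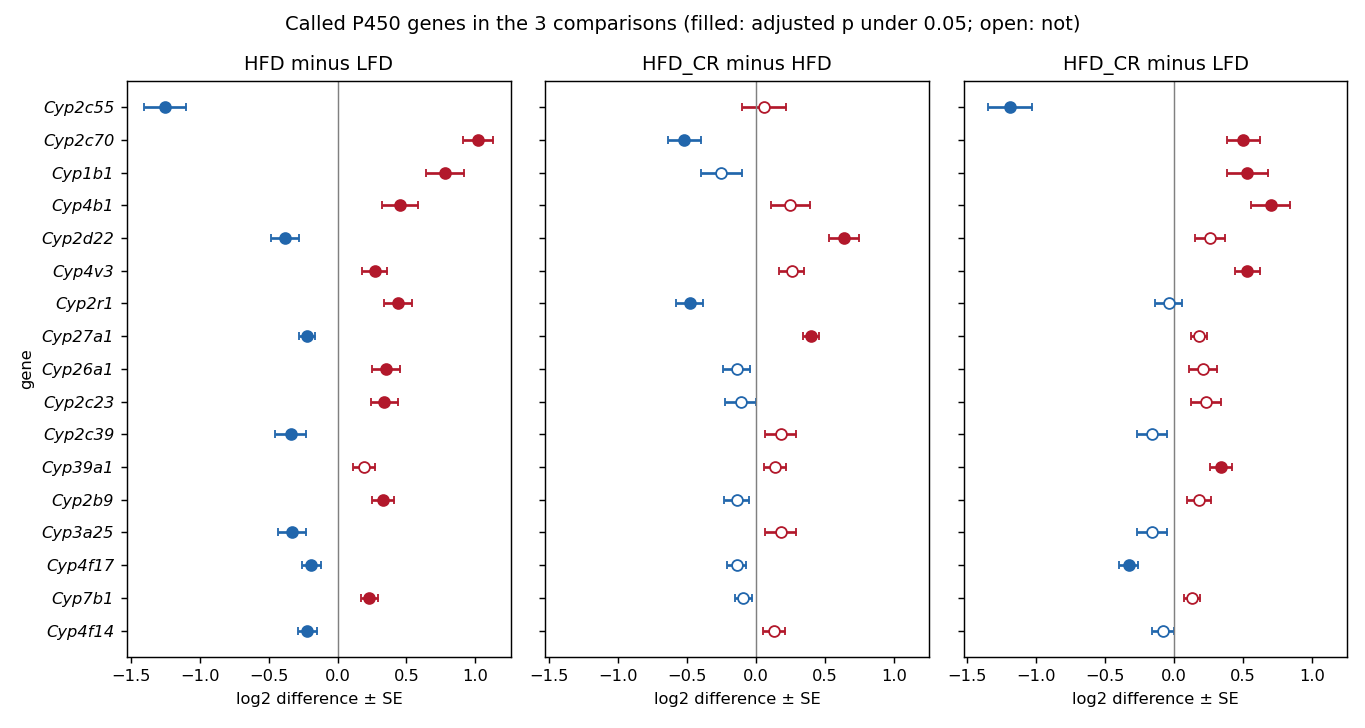
Log2 differences ± SE (horizontal axes) of the 17 P450 genes called in at least 1 comparison (rows), with 1 panel for each comparison, filled points for adjusted p under 0.05 and open points otherwise. The brighter Cyp2c55 probe set lies far to the left in both comparisons with LFD and near 0 in HFD_CR minus HFD, while Cyp2d22 and Cyp27a1 lie left of 0 in HFD minus LFD and right of 0 in HFD_CR minus HFD.

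The CYP1 family holds the enzymes most closely tied to the AhR. Cyp1b1 oxidises estrogens and aromatic hydrocarbons and is the family member known from mesenchymal cells. Its signal was 8.06, 7.59, 7.85, 8.38 and 8.14 in the HFD_CR mice, ran from 7.92 over a median of 8.20 to 8.66 in HFD mice, and from 7.23 over 7.44 to 7.93 in LFD mice. The HFD and LFD mice overlapped only through the LFD mouse at 7.93 and the HFD mouse at 7.92. Cyp1b1 rose 1.72-fold in HFD against LFD fat (0.78 ± 0.14, adjusted p = 0.000292). It did not pass between HFD_CR and HFD fat (-0.25 ± 0.15, adjusted p = 0.273) and was higher in HFD_CR than in LFD fat (0.53 ± 0.15, adjusted p = 0.0275). The last call was lost when any 1 of HFD_CR mice 1, 4 and 5 or LFD mice 3, 4 and 5 was left out (0.44 to 0.52, adjusted p 0.0501 to 0.0878). Cyp1a1, the most inducible AhR target in liver, did not pass: its HFD minus LFD difference was -0.19 ± 0.13 (adjusted p = 0.321), with signals of 6.67 to 7.00 in HFD_CR, 6.65 to 7.16 in HFD and 6.69 to 7.71 in LFD mice. Cyp1a2, a liver enzyme of caffeine and estrogen metabolism, differed by 0.02 ± 0.07 (adjusted p = 0.882). Both were dim, with means below the array median, so their missing calls cannot be taken as a lack of change. The gene of the receptor, Ahr, and that of its repressor, Ahrr, did not pass either (0.02, adjusted p = 0.923, and 0.00, adjusted p = 0.966). Ahrr was dim as well. Tiparp, a further AhR target, fell by 0.22 ± 0.06 in HFD against LFD fat (adjusted p = 0.00692) and rose in HFD_CR against HFD fat (0.33 ± 0.06, adjusted p = 0.000543). Macrophage markers and 5 of the 9 progenitor and fibroblast markers moved in the same direction as Cyp1b1 in HFD against LFD fat. Pdgfra, a receptor that marks mesenchymal progenitors, had the calls of Cyp1b1 in all comparisons, at 0.56 ± 0.10 in HFD against LFD fat (adjusted p = 0.000239), -0.06 ± 0.10 in HFD_CR against HFD fat (adjusted p = 0.758) and 0.50 ± 0.10 in HFD_CR against LFD fat (adjusted p = 0.00449). Of the same list, Dcn had these calls too. Col1a1, Col3a1 and Lum fell in HFD_CR against HFD fat (-0.88, -0.75 and -1.31), and Dpp4, Pi16, Cd34 and Thy1 passed in no comparison. The part of macrophages, progenitors and fibroblasts in the Cyp1b1 differences was not tested.

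Members of the sterol routes were among the genes called in each comparison. Of the vitamin D members, Cyp2r1 was called in HFD against LFD fat and in HFD_CR against HFD fat. Cyp27a1, the mitochondrial sterol hydroxylase that makes 27-hydroxycholesterol, had signals of 10.81, 10.96, 11.08, 10.95 and 10.98 in HFD_CR mice, 10.47 to 10.70 with a median of 10.54 in HFD mice and 10.63 to 10.94 with a median of 10.77 in LFD mice. All HFD_CR mice lay above all HFD mice, and HFD and LFD mice overlapped. Cyp27a1 fell by 0.22 ± 0.06 in HFD against LFD fat (adjusted p = 0.00758) and rose 1.32-fold in HFD_CR against HFD fat (0.40 ± 0.06, adjusted p = 0.000131). Between HFD_CR and LFD fat the difference was 0.18 ± 0.06 (adjusted p = 0.07). The adipocyte markers ran the same way as Cyp27a1 in the first and second comparisons, lower with the high-fat diet and higher with restriction, and their part was not tested.

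Cyp39a1, which hydroxylates 24-hydroxycholesterol, was higher in HFD_CR than in LFD fat (0.34 ± 0.08, adjusted p = 0.0134). Its signals were 8.23, 8.25, 8.44, 8.36 and 8.34 in HFD_CR, 8.04 to 8.35 with a median of 8.17 in HFD and 7.72 to 8.24 with a median of 8.01 in LFD mice. The ranges of HFD_CR and LFD mice met at 8.23 and 8.24. The call ended when the 4 arrays high in muscle or gland markers and HFD_CR mouse 1 were left out together (0.40, adjusted p = 0.0532). HFD minus LFD was 0.19 ± 0.08 (adjusted p = 0.0776). Cyp7b1, the oxysterol 7-alpha hydroxylase, rose in HFD against LFD fat (0.23 ± 0.06, adjusted p = 0.00549). Its signals of 6.70 to 6.87 in HFD mice and 6.44 to 6.68 in LFD mice did not overlap, but all lay below the array median, where signals cannot be taken as expression. Cyp7a1, the rate-limiting enzyme of bile acid synthesis in liver, and Cyp8b1, which makes cholic acid precursors, were dim too and differed by at most 0.07 in size in every comparison. Of the 6 members of the bile acid and oxysterol group, 1 rose and 1 fell with the high-fat diet (33.3%, against 27.8% of all genes). With restriction 1 rose (16.7%, against 19.0%), and 1 was higher in HFD_CR than in LFD fat (16.7%, against 9.08%). With 6 members these shares are coarse.

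Cyp2r1, a microsomal enzyme that starts vitamin D activation, had signals of 8.15, 7.79, 7.68, 7.61 and 7.65 in HFD_CR mice, 7.99 to 8.54 with a median of 8.27 in HFD mice and 7.72 to 8.02 with a median of 7.79 in LFD mice. HFD mice were the highest, overlapping slightly with both other groups. Cyp2r1 rose 1.36-fold in HFD against LFD fat (0.44 ± 0.10, adjusted p = 0.00166) and fell by 0.48 ± 0.10 in HFD_CR against HFD fat (adjusted p = 0.00206). HFD_CR minus LFD was -0.04 ± 0.10 (adjusted p = 0.87). Cyp27b1 and Cyp24a1, which make and break down the active hormone, were dim and passed in no comparison (differences between -0.10 and 0.09).

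Cyp26 enzymes degrade retinoic acid. Cyp26a1 rose in HFD against LFD fat (0.35 ± 0.10, adjusted p = 0.00979) at signals below the array median, 6.39 to 6.75 in HFD and 5.93 to 6.48 in LFD mice. With the 4 arrays high in muscle or gland markers left out, the call was lost (0.27, adjusted p = 0.078). With HFD_CR mouse 1, high in germ cell markers, left out as well, an alternative chosen after the data were seen, it held (0.27, adjusted p = 0.0443). Cyp26b1 ran from 7.35 to 7.59 in HFD_CR, 7.07 to 7.56 in HFD and 7.20 to 7.76 in LFD mice and passed nowhere (HFD minus LFD -0.10 ± 0.10, adjusted p = 0.493). Cyp26c1 did not pass either.

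The 20 members of the CYP4 family, which hydroxylate fatty acids near the chain end, were led by Cyp4b1 and Cyp4v3. Cyp4b1, which acts on medium-chain fatty acids and protoxins, had signals of 10.74, 10.67, 10.77, 11.10 and 11.29 in HFD_CR mice, 10.15 to 10.87 with a median of 10.75 in HFD mice and 9.76 to 10.43 with a median of 10.26 in LFD mice. Restricted mice all lay above LFD mice, and 1 HFD mouse, at 10.15, fell among the LFD mice. Cyp4b1 rose 1.37-fold in HFD against LFD fat (0.45 ± 0.13, adjusted p = 0.0157) and was 1.63-fold higher in HFD_CR than in LFD fat (0.70 ± 0.14, adjusted p = 0.00358). HFD_CR minus HFD was 0.25 ± 0.14 (adjusted p = 0.255). Leaving out the 4 arrays high in muscle or gland markers ended the HFD minus LFD call (0.32, adjusted p = 0.118). So did leaving out LFD mice 3 and 6, which had the brightest markers of thermogenic adipocytes (0.34, adjusted p = 0.0781), and HFD_CR minus LFD held in both.

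Cyp4v3, an omega-hydroxylase of fatty acids whose human counterpart CYP4V2 is mutated in a retinal dystrophy, had signals of 11.35, 11.38, 11.42, 11.34 and 11.46 in HFD_CR mice, 10.97 to 11.27 with a median of 11.15 in HFD mice and 10.51 to 11.10 with a median of 10.88 in LFD mice. The restricted mice stood above both other groups without overlap. Cyp4v3 was higher in HFD_CR than in LFD fat (0.53 ± 0.09, adjusted p = 0.000995) and in HFD than in LFD fat (0.27 ± 0.09, adjusted p = 0.0217). HFD_CR minus HFD was 0.26 ± 0.09 and just missed the threshold (adjusted p = 0.0536). The HFD minus LFD call ended when HFD mouse 4 was left out (0.25, adjusted p = 0.051). It also ended without the LFD mouse numbered 6 (0.25, adjusted p = 0.0532) and, at 0.15 (adjusted p = 0.131), without that mouse and LFD mouse 3. A probe set shared by Klkb1 and Cyp4v3 passed in no comparison: it differed by 0.17 ± 0.08 in HFD against LFD fat (adjusted p = 0.129), by 0.00 ± 0.08 in HFD_CR against HFD fat (adjusted p = 1) and by 0.17 ± 0.08 in HFD_CR against LFD fat (adjusted p = 0.254). The higher signal of HFD_CR than of LFD mice was thus called at 1 of these 2 probe sets.

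Cyp4f17, a fatty acid hydroxylase of the CYP4F group, had signals of 8.94, 9.04, 8.86, 8.67 and 8.90 in HFD_CR mice, 8.83 to 9.15 with a median of 9.05 in HFD mice and 9.05 to 9.35 with a median of 9.19 in LFD mice. HFD_CR mice lay below LFD mice without overlap, and HFD mice overlapped both. Cyp4f17 fell by 0.33 ± 0.07 in HFD_CR against LFD fat (adjusted p = 0.00641). In HFD against LFD fat it fell by 0.19 ± 0.07 (adjusted p = 0.0438), a call that 15 of 29 alternatives ended. Cyp4f14, which hydroxylates leukotriene B4, fell by 0.22 ± 0.07 in HFD against LFD fat (adjusted p = 0.0309) at dim signals of 5.63 to 5.95 in HFD and 5.80 to 6.07 in LFD mice, and 11 of 28 alternatives ended that call. The other 16 members passed nowhere, among them Cyp4f13 and Cyp4f18, both bright, with differences between -0.20 and 0.14. Cyp4a14, a fatty acid hydroxylase that PPAR alpha induces in liver, was dim and did not pass (HFD minus LFD 0.07 ± 0.10, adjusted p = 0.666).

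**Figure D2:**
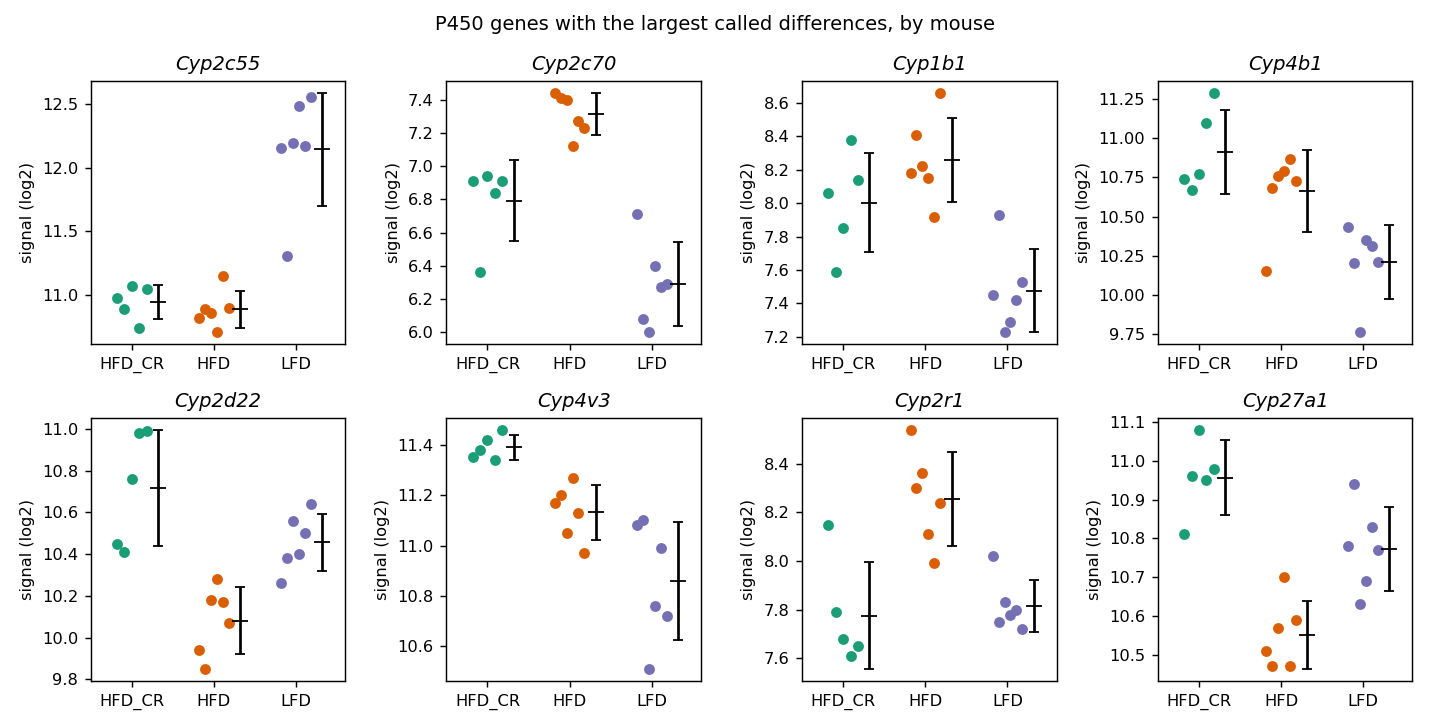
Log2 signals (vertical axes) of the 8 P450 genes with the largest called differences, by mouse, in HFD_CR (n = 5), HFD (n = 6) and LFD (n = 6) fat; bars are mean ± SD. The brighter Cyp2c55 probe set is high in LFD mice only, Cyp2d22 is highest in HFD_CR mice, Cyp2r1 is highest in HFD mice, and the Cyp4v3 signals of HFD_CR mice all exceed 11.3.

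The CYP2C and CYP2J subfamilies epoxidise arachidonic acid and had 22 members. Of these, 2 rose and 2 fell with the high-fat diet (18.2%, against 27.8% of all genes). The largest difference among the 95 members was at a probe set annotated to Cyp2c55, an enzyme that makes hydroxylated arachidonic acid. It had signals of 10.98, 10.89, 11.07, 10.74 and 11.05 in HFD_CR mice, 10.71 to 11.15 with a median of 10.88 in HFD mice and 11.31 to 12.55 with a median of 12.18 in LFD mice. Both high-fat groups lay below all LFD mice. This probe set was 0.42-fold in HFD against LFD fat (-1.25 ± 0.15, adjusted p = 4.88e-06) and 0.44-fold in HFD_CR against LFD fat (-1.19 ± 0.16, adjusted p = 0.000126), with HFD_CR minus HFD at 0.06 ± 0.16 (adjusted p = 0.868). A second probe set annotated to Cyp2c55 gave another picture: its signals were 5.11 to 5.54 in HFD_CR, 5.32 to 5.52 in HFD and 5.30 to 5.90 in LFD mice, all below the array median. In HFD against LFD fat it differed by -0.05 ± 0.09 (adjusted p = 0.728 over 25335 probe sets). Averaged, the pair fell by 0.65 (adjusted p = 2.54e-05). Which of them measures the Cyp2c55 transcript is not given in the sources used here, so the fall belongs to 1 probe set and cannot be assigned to the gene with certainty.

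Cyp2c70, which makes muricholic acids in mouse liver, was the member called in every comparison. Its signals were 6.91, 6.36, 6.94, 6.84 and 6.91 in HFD_CR mice, 7.12 to 7.44 with a median of 7.34 in HFD mice and 6.00 to 6.71 with a median of 6.28 in LFD mice. HFD mice stood above both other groups without overlap, and HFD_CR and LFD mice overlapped. Cyp2c70 rose 2.03-fold in HFD against LFD fat (1.02 ± 0.11, adjusted p = 1.87e-06), fell by 0.52 ± 0.12 in HFD_CR against HFD fat (adjusted p = 0.00422) and was higher in HFD_CR than in LFD fat (0.50 ± 0.12, adjusted p = 0.0114). All signals of HFD_CR and LFD mice lay below 7.03, the lowest array median, so the size of these differences is uncertain. Once signals under an array's median were lifted to that median, they were 0.23 (adjusted p = 0.000606), -0.23 (adjusted p = 0.00188) and 0.00 (adjusted p = 0.945), an alternative chosen after the data were seen. Its order of groups was that of the macrophage markers, whose part was not tested.

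Of the other CYP2C and CYP2J members, Cyp2c23, an arachidonic acid epoxygenase of mouse kidney, rose in HFD against LFD fat (0.34 ± 0.10, adjusted p = 0.0169) at dim signals of 6.67 to 7.10 in HFD and 6.17 to 6.91 in LFD mice. It lost the call once the 4 arrays high in muscle or gland markers were left out (0.24, adjusted p = 0.152). Cyp2c39, which is known to hydroxylate retinoic acid, fell by 0.34 ± 0.11 (adjusted p = 0.0225), at dim signals of 6.63 to 6.92 in HFD and 6.82 to 7.43 in LFD mice. The call was ended by 5 of 28 alternatives. Among these was raising signals below the array median to it (-0.12, adjusted p = 0.107), chosen after the data were seen. Cyp2j6, an arachidonic acid epoxygenase, ran from 8.56 to 8.83 in HFD_CR, 8.56 to 8.83 in HFD and 8.70 to 8.98 in LFD mice and did not pass (HFD minus LFD -0.10 ± 0.06, adjusted p = 0.247). Cyp2j6 and Cyp2j9 both had means above the array median, and Cyp2j9 did not pass either. Genes of the CYP2A, CYP2B, CYP2C, CYP2D, CYP3A and CYP4A groups have close copies, so the gene behind such a signal is uncertain.

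In the CYP2D subfamily, which metabolises many drugs in humans, Cyp2d22 was the 1 called gene of 10. This was 10.0%, against 27.8% of all genes in HFD against LFD fat and 19.0% in HFD_CR against HFD fat. Its signals were 10.45, 10.41, 10.76, 10.98 and 10.99 in HFD_CR mice, 9.85 to 10.28 with a median of 10.12 in HFD mice and 10.26 to 10.64 with a median of 10.45 in LFD mice. HFD_CR mice all lay above HFD mice, and HFD and LFD mice overlapped by a narrow margin. Cyp2d22 fell by 0.38 ± 0.10 in HFD against LFD fat (adjusted p = 0.0108) and rose 1.56-fold in HFD_CR against HFD fat (0.64 ± 0.11, adjusted p = 0.000429), with HFD_CR minus LFD at 0.26 ± 0.11 (adjusted p = 0.163). The first call was lost without LFD mice 3 and 6 (-0.30, adjusted p = 0.0678). The 9 other members passed nowhere, and Cyp2d40, also bright, differed by 0.24 ± 0.14 in HFD against LFD fat (adjusted p = 0.238). Adipocyte markers moved in the direction of Cyp2d22 in both comparisons, and their part was not tested.

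In the CYP2A, CYP2B and CYP2G subfamilies Cyp2b9, a female-predominant gene of mouse liver, was the 1 called gene of 10 (10.0%, against 27.8% of all genes). It rose in HFD against LFD fat (0.33 ± 0.08, adjusted p = 0.00581), at dim signals of 6.20 to 6.76 in HFD and 5.91 to 6.20 in LFD mice. Cyp2b10, the classical target of the nuclear receptor CAR, had wide spread: signals were 6.31, 6.25, 6.18, 6.42 and 6.79 in HFD_CR mice, 5.86 to 7.20 with a median of 6.09 in HFD mice and 6.14 to 9.60 with a median of 6.48 in LFD mice. The top values were LFD mouse 3 (9.60) and HFD mouse 3 (7.20), the arrays on which the mean of 12 gland epithelium markers reached 8.98 and 7.69. HFD minus LFD was -0.73 ± 0.43 (adjusted p = 0.248), and -0.20 (adjusted p = 0.498) without LFD mouse 3. HFD_CR minus HFD was 0.14 (adjusted p = 0.888), and it passed at 0.37 (adjusted p = 0.0358) once the 4 arrays high in muscle or gland markers, LFD and HFD mice 3 among them, were left out. In the CYP3A subfamily, whose liver members clear steroids and drugs, Cyp3a25 fell by 0.33 ± 0.10 in HFD against LFD fat (adjusted p = 0.0176) at the low signals of 4.96 to 5.14 in HFD and 5.00 to 5.74 in LFD mice. The 6 others did not pass, and both probe sets shared by Cyp3a11, Cyp3a41a, Cyp3a41b and Cyp3a44 fell by 0.22 (adjusted p = 0.0277 and 0.0381 over 25335 probe sets).

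No member of the steroid hormone group passed in any comparison. Cyp11a1, which cleaves the cholesterol side chain in the first step of steroid synthesis, ran from 6.60 to 7.00 in HFD_CR, 6.56 to 7.05 in HFD and 6.26 to 7.24 in LFD mice, with HFD minus LFD at -0.01 ± 0.14 (adjusted p = 0.983). Its second, dimmer probe set fell by 0.18 ± 0.06 in HFD against LFD fat (adjusted p = 0.024 over 25335 probe sets) and by 0.22 ± 0.06 in HFD_CR against LFD fat (adjusted p = 0.0278), so the pair disagreed. Both were dim, and the second ran from 6.06 to 6.53, below the median on all arrays. Cyp17a1, an enzyme of androgen synthesis, had signals of 9.25, 6.48, 6.47, 5.98 and 6.63 in HFD_CR mice, 5.74 to 6.79 with a median of 5.95 in HFD mice and 5.93 to 7.68 with a median of 6.47 in LFD mice. The high HFD_CR value came from mouse 1, where the mean of 9 male germ cell markers was 9.38, against at most 7.83 on any other array. The mean of 5 markers of steroid-making cells was also highest there, at 7.58, against at most 7.08 elsewhere. LFD mice 1 and 4 had Cyp17a1 at 7.68 and 7.60. Their germ cell means were 7.39 and 7.70, and their means of steroid-making cells 7.08 and 6.95. The part of such cells was not tested. HFD_CR minus HFD was 0.87 ± 0.47 (adjusted p = 0.235), and 0.29 (adjusted p = 0.62) without HFD_CR mouse 1. Cyp11b1, Cyp11b2 and Cyp21a1, the adrenal enzymes of corticoid synthesis, were dim and differed by at most 0.20 in size.

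**Figure D3:**
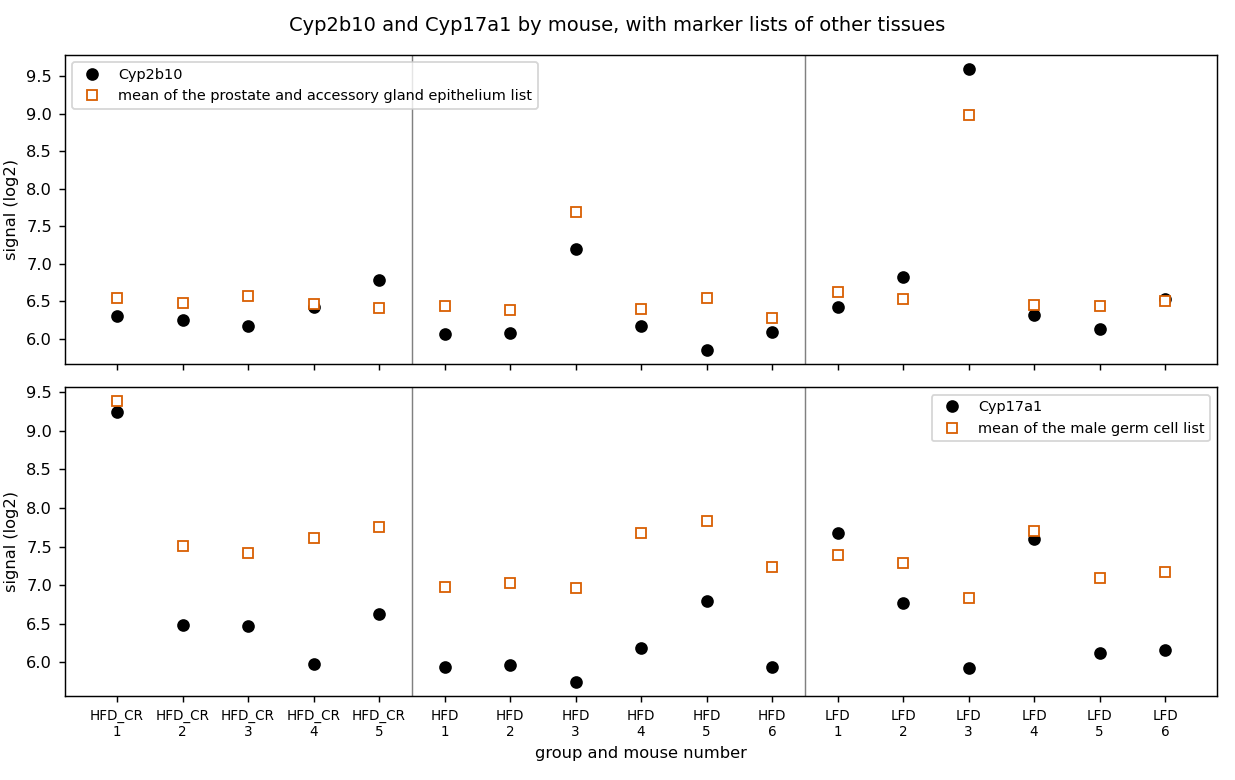
Log2 signals (vertical axes) of Cyp2b10 (top) and Cyp17a1 (bottom) as filled circles by group and mouse number, with the mean signal of the gland epithelium or male germ cell marker list as open squares. Cyp2b10 is highest in LFD mouse 3 (9.60), where the gland list is at 8.98, and Cyp17a1 in HFD_CR mouse 1 (9.25), where the germ cell list is at 9.38.

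The 6 remaining members, Cyp20a1, Cyp2ab1, Cyp2s1, Cyp2t4, Cyp2u1 and Cyp2w1, passed in no comparison. Cyp2u1, a fatty acid hydroxylase, came close in 2 of them, with HFD minus LFD at -0.17 ± 0.07 (adjusted p = 0.062) and HFD_CR minus HFD at 0.20 ± 0.07 (adjusted p = 0.0559). Cyp2s1, an enzyme of epithelia, had HFD_CR minus HFD at 0.25 ± 0.09 (adjusted p = 0.0627).

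**Figure D4:**
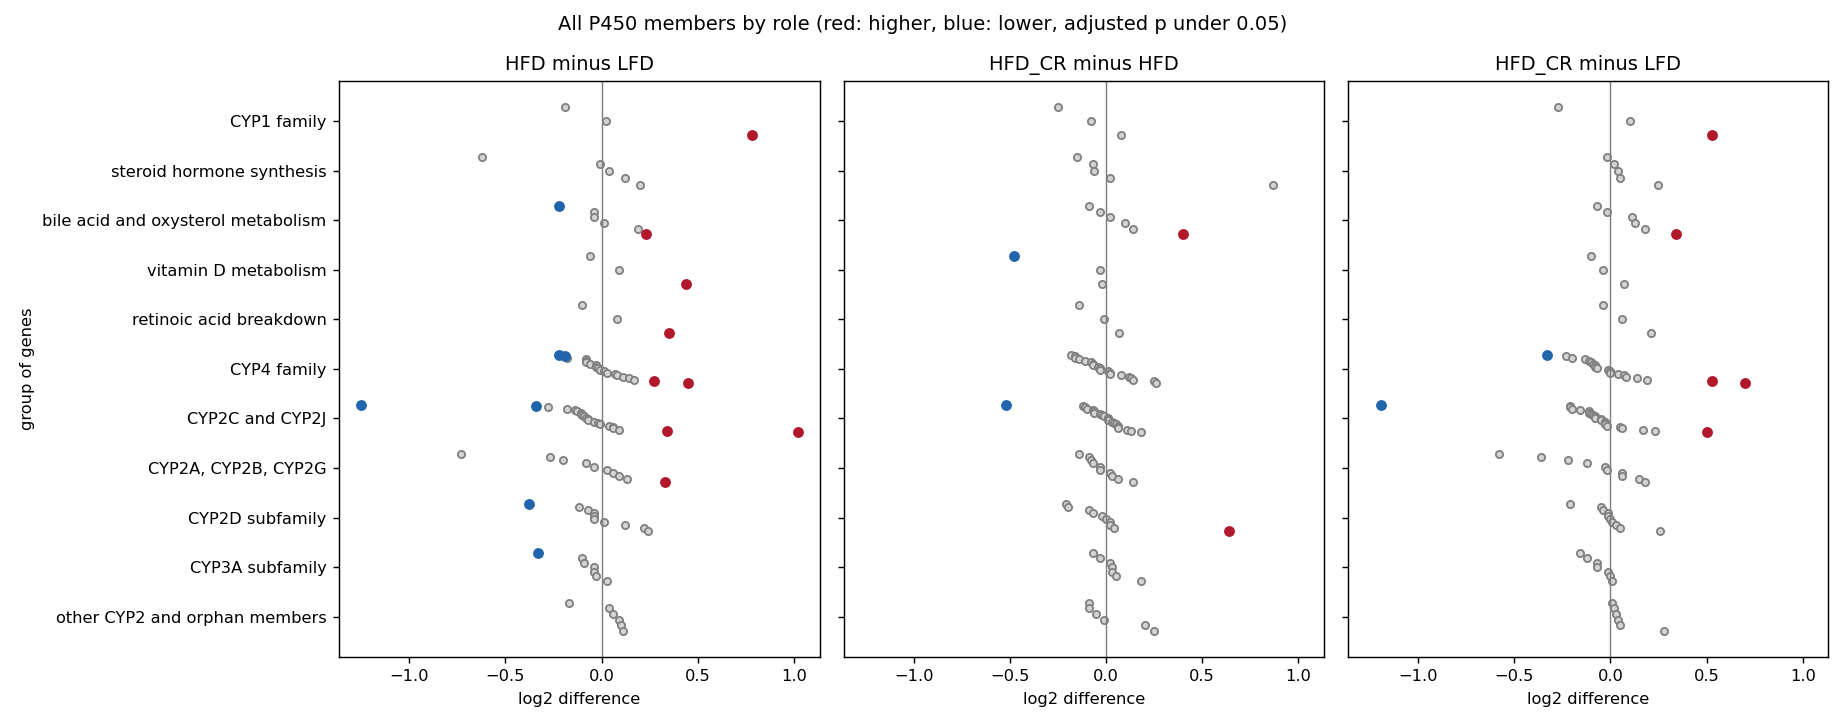
Log2 differences (horizontal axes) of all 95 P450 genes by role (rows), with 1 panel for each comparison; red points rose and blue points fell at adjusted p under 0.05, and grey points did not pass. Most points lie within 0.5 of 0 in every role, and the CYP2C and CYP2J row has the widest spread in HFD minus LFD, from -1.25 to 1.02.

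Partners of P450 enzymes were read from 8 lists fixed by function, with earlier results of these data known. The share of a list called was 29.2% to 72.7% in HFD against LFD fat, beside 27.8% of all genes, and the median difference of a list lay between -0.073 and 0.053. In HFD_CR against HFD fat the shares were 25.0% to 66.7%, beside 19.0% of all genes, and in HFD_CR against LFD fat 6.67% to 33.3%, beside 9.08%. Of the 102 partner genes 78 had mean signals above 7.15, and of all genes as bright 41.4%, 29.9% and 14.6% were called in the 3 comparisons, in that order. Of 9 electron donors measured, 3 rose and 3 fell in HFD against LFD fat. Cyb5r2 and Cyb5r4, reductases of the cytochrome b5 type, rose by 0.71 ± 0.10 (adjusted p = 1.65e-05) and 0.55 ± 0.07 (adjusted p = 7.73e-06), and Cyb5r1 by 0.22 ± 0.06 (adjusted p = 0.00983, and 0.0578 after quantile normalization). In HFD_CR against HFD fat 1 rose and 2 fell, with Cyb5r4 lower by 0.42 ± 0.07 (adjusted p = 0.000443) and Cyb5a, the microsomal cytochrome b5, higher by 0.17 ± 0.05 (adjusted p = 0.0109). Cyb5r2 was also higher in HFD_CR than in LFD fat (0.79 ± 0.10, adjusted p = 9.23e-05). Por, the main electron donor, was not analysed here.

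Of 3 P450 enzymes with other symbols, Tbxas1, the thromboxane synthase of platelets and macrophages, had signals of 8.96, 8.44, 8.70, 8.69 and 8.54 in HFD_CR mice, all above 9.2 in HFD mice and none above 8.65 in LFD mice. It rose in HFD against LFD fat (1.08 ± 0.10, adjusted p = 1.77e-07) and fell by 0.80 ± 0.10 in HFD_CR against HFD fat (adjusted p = 2.9e-05), in the same directions as the macrophage markers, whose part was not tested. Cyp51, the demethylase of cholesterol synthesis, fell by 0.95 ± 0.19 in HFD_CR against HFD fat (adjusted p = 0.00153) and by 1.28 ± 0.19 in HFD_CR against LFD fat (adjusted p = 0.000358), while HFD minus LFD was -0.33 ± 0.18 (adjusted p = 0.21). Its signals were 8.26, 7.95, 8.01, 7.79 and 7.77 in the HFD_CR mice.

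Of 24 receptors and regulators of P450 genes, 2 rose and 5 fell in HFD against LFD fat, and 5 rose and 1 fell in HFD_CR against HFD fat. Ppara, which drives CYP4A genes in liver, fell by 0.50 ± 0.12 with the high-fat diet (adjusted p = 0.00355) and rose by 0.49 ± 0.12 with restriction (adjusted p = 0.00885). Pparg, the receptor of adipocyte differentiation, fell by 0.36 ± 0.06 (adjusted p = 0.000136) and rose by 0.30 ± 0.06 (adjusted p = 0.00203) in the same comparisons. Rxrg fell by 0.28 ± 0.07 in HFD against LFD fat (adjusted p = 0.0048). In HFD_CR against LFD fat 2 of 24 passed, and neither call was steady. Rxrg was lower (-0.24 ± 0.07, adjusted p = 0.0436), which 17 of 29 alternatives ended, and Nfe2l2, a regulator of antioxidant genes, was higher (0.20 ± 0.05, adjusted p = 0.023), which 6 of 29 ended.

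Among 14 epoxide hydrolases and other enzymes of arachidonic acid, which compete with or follow CYP2C and CYP2J, 6 rose and 1 fell in HFD against LFD fat. Hpgds, the hematopoietic prostaglandin D synthase, rose by 2.55 ± 0.18 (adjusted p = 1.87e-08), Alox5ap, the helper of 5-lipoxygenase, rose by 0.66 ± 0.10 (adjusted p = 4.47e-05), and Ptges, a prostaglandin E synthase, fell by 1.15 ± 0.10 (adjusted p = 1.84e-07). With restriction 1 rose and 3 fell, with Hpgds at -1.57 ± 0.19 (adjusted p = 1.99e-05), Alox5ap at -0.56 ± 0.10 (adjusted p = 0.000798) and Ltc4s, the leukotriene C4 synthase, at -0.44 ± 0.09 (adjusted p = 0.00158). In HFD_CR against LFD fat 3 rose and 1 fell, with Hpgds at 0.98 ± 0.19 (adjusted p = 0.00272), Ptges at -0.82 ± 0.11 (adjusted p = 0.000128) and Ephx1, the microsomal epoxide hydrolase, at 0.52 ± 0.07 (adjusted p = 0.000277). Hpgds and the leukotriene genes are expressed by leukocytes, and the part of macrophage markers was not tested.

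The retinoid list showed the largest partner change. Dhrs9, a retinol dehydrogenase, had signals of 8.61, 7.20, 7.68, 8.32 and 7.98 in HFD_CR mice, 9.56 to 10.57 in HFD mice and 6.93 to 7.79 in LFD mice. HFD mice stood apart from both other groups. Dhrs9 rose by 2.79 ± 0.22 in HFD against LFD fat (adjusted p = 5.87e-08) and fell by 2.18 ± 0.24 in HFD_CR against HFD fat (adjusted p = 9.73e-06). The macrophage markers moved in the same directions, and their part was not tested. Of 15 genes of this list, 3 rose and 4 fell with the high-fat diet, including Aldh1a2 (0.64 ± 0.12, adjusted p = 0.000674) and Aldh1a3 (0.52 ± 0.12, adjusted p = 0.00294), which make retinoic acid. With restriction 3 rose and 2 fell, with Aldh1a1 at 0.45 ± 0.08 (adjusted p = 0.000576). In HFD_CR against LFD fat 1 of 15 passed, namely Rbp4, which fell.

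Heme is the cofactor of all P450 enzymes, and 8 of 11 genes of its synthesis and breakdown changed with the high-fat diet, 4 in each direction. Hmox1, the inducible heme oxygenase, rose by 1.57 ± 0.10 (adjusted p = 8.32e-09) and Blvra, a biliverdin reductase, by 0.80 ± 0.07 (adjusted p = 1.33e-07), while Alad, the second enzyme of heme synthesis, fell by 0.81 ± 0.09 (adjusted p = 2.89e-06). Hmox2 and Blvrb, of heme breakdown, also rose, and Urod, Ppox and Fech, of heme synthesis, also fell. The synthesis genes Alas1, the first enzyme, Uros and Cpox did not pass, at -0.01 ± 0.06 (adjusted p = 0.939), -0.02 ± 0.06 (adjusted p = 0.882) and 0.13 ± 0.06 (adjusted p = 0.156). All 11 had mean signals above the array median, where 41.4% of genes were called. With restriction 3 rose and 4 fell, with Hmox1 at -0.84 ± 0.11 (adjusted p = 2.89e-05), Blvra at -0.35 ± 0.07 (adjusted p = 0.00242) and Alad at 0.31 ± 0.10 (adjusted p = 0.0323). The Alad call was lost without any 1 of HFD_CR mice 3, 4 and 5 or HFD mice 1, 2, 3 and 6 (0.28 to 0.31, adjusted p 0.0526 to 0.0763). In HFD_CR against LFD fat Hmox1 was still higher (0.74 ± 0.11, adjusted p = 0.000277), as was Blvra (0.45 ± 0.07, adjusted p = 0.000704), and Alad was lower (-0.50 ± 0.10, adjusted p = 0.0032). Hmox1 and Blvra moved in the directions of the macrophage markers with the high-fat diet and with restriction, and the part of macrophages was not tested.

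Of 11 oxysterol and bile acid partners, 2 rose and 3 fell with the high-fat diet, led by Gpr183, the receptor of a dihydroxylated oxysterol on immune cells (0.47 ± 0.14, adjusted p = 0.0145), Scp2 (-0.43 ± 0.07, adjusted p = 0.000109) and Amacr (-0.42 ± 0.07, adjusted p = 0.000126), both of peroxisomal sterol side-chain shortening. With restriction 1 rose and 3 fell, with Gpr183 at -0.59 ± 0.14 (adjusted p = 0.00674) and Hsd3b7, which follows Cyp7b1 in bile acid synthesis, at 0.26 ± 0.05 (adjusted p = 0.000675). The first Gpr183 call was lost without the 4 arrays high in muscle or gland markers (0.44, adjusted p = 0.067), and the second when HFD_CR mouse 1 was left out as well (-0.54, adjusted p = 0.0606). Of 15 steroid partners, 2 rose and 4 fell with the high-fat diet, among them Hsd11b1, which regenerates corticosterone (-0.52 ± 0.08, adjusted p = 0.000113), and Sult1e1, the estrogen sulfotransferase (-0.49 ± 0.15, adjusted p = 0.0169), whose call was lost without LFD mice 3 and 6 (-0.44, adjusted p = 0.0638). With restriction 5 rose and 4 fell, with Sult1e1 at 0.69 ± 0.15 (adjusted p = 0.00344) and Hsd11b1 at 0.50 ± 0.09 (adjusted p = 0.000504).

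**Figure D5:**
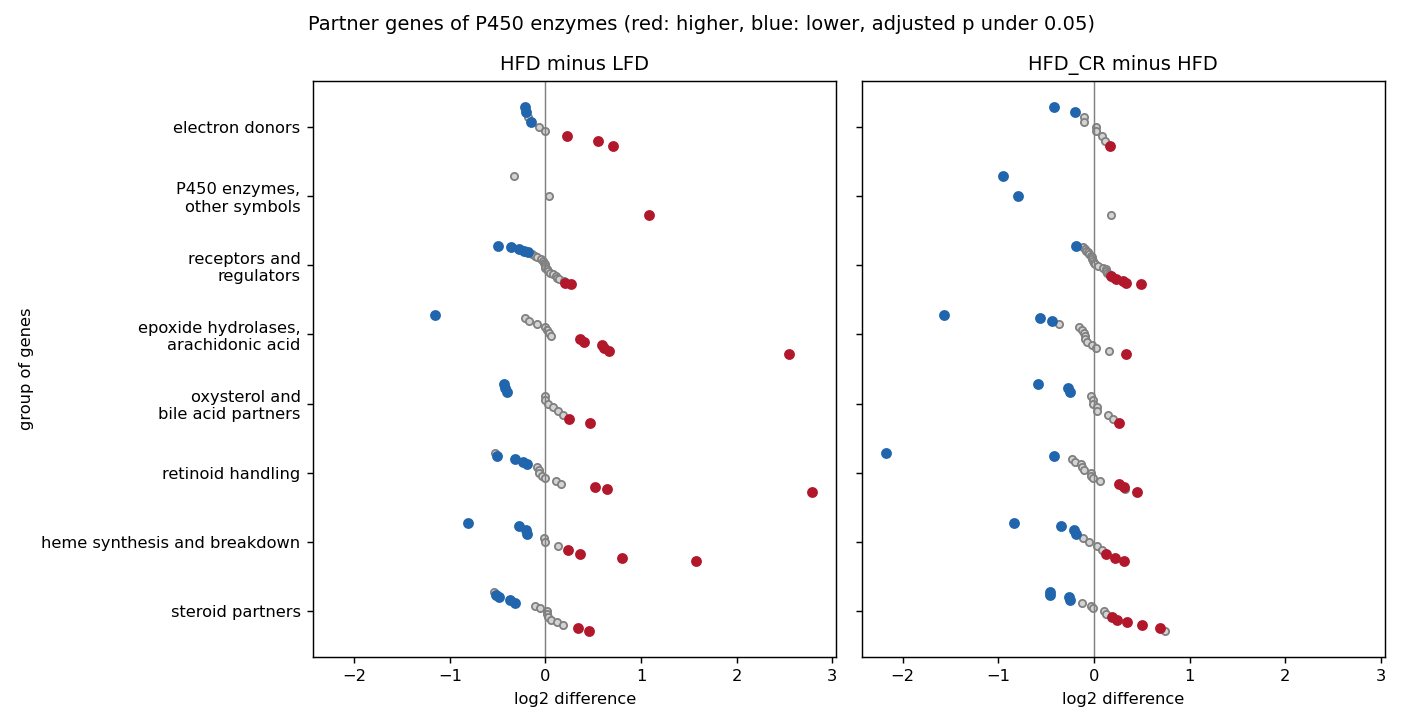
Log2 differences (horizontal axes) of the partner genes by list (rows) in HFD minus LFD (left) and HFD_CR minus HFD (right); red points rose and blue points fell at adjusted p under 0.05, and grey points did not pass. Dhrs9 and Hpgds are the far points, at 2.79 and 2.55 on the left and at -2.18 and -1.57 on the right.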

How the data were processed

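RNA of periprostatic fat was measured on 17 arrays, 1 per mouse (5 HFD_CR, 6 HFD and 6 LFD), and groups were taken from the sample labels. The deposited values are log2 signals, 1 for each probe set. RMA, limma and R 3.5.0 were used per the submitters' processing notes, which give no roles. RMA subtracts background, equalises the arrays and combines the probes of a set, which narrows differences between dim signals. The genome build behind the array annotation is not given in the sources used here.

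Of 33793 probe sets, 23521 had 1 gene symbol in the platform annotation, 1814 several and 8458 none. The probe set with the highest mean stood for its gene, which left 22180 genes. The 95 members had 98 probe sets, with 2 each for 3 members. Group means over the 17 arrays came from lmFit and eBayes of limma 3.58.1 (R 4.3.3, with 14 residual and 3.625 prior degrees of freedom), and Benjamini-Hochberg adjustment ran over all genes. The procedure was tested on simulated data. RNA passed the integrity limit of the labels' protocols.

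The members and lists were chosen with earlier results of these data known. Named members were those called with the largest differences, up to 25, and 10 fixed genes, and named partners were up to 3 called per list and comparison. Uncalled genes named beyond this rule, the further heme genes, and Ahr, Ahrr, Pdgfra and Alb were chosen after their values were seen. So were the other named progenitor and fibroblast markers. Alternatives were each mouse left out, the mouse number as a block, other filters, scalings, probe set choices, fits and thresholds, arrays high in muscle or gland markers left out (also with the array high in germ cell markers), dim signals raised to the array median and LFD mice 3 and 6 left out. Plots used matplotlib 3.10.9 and Python 3.11.15. One P450 gene is not reported here.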

Additional observations from a re-analysis of the deposited data

Results flagged for a closer look

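Among 23 named P450 genes and 3 groups each, 69 sets of mice were searched for a single mouse far from the others of its group, and 7 held one. The cutoff used is passed by chance in about 1 in 20 independent sets. These sets share mice, and the genes were chosen with earlier results known, so 7 of 69 cannot be set against that rate. LFD mouse 2 had a Cyp2c55 signal of 11.31, where the other LFD mice had 12.15 to 12.55, and without it HFD minus LFD was -1.42 (adjusted p = 2.32e-08). Cyp2c70 was at 6.36 in HFD_CR mouse 2, against 6.84 to 6.94 in the other restricted mice, and without it HFD_CR minus HFD was -0.41 (adjusted p = 0.0117). Cyp4b1 was at 10.15 in HFD mouse 1, against 10.68 to 10.87 in the other HFD mice, and at 9.76 in LFD mouse 3, with 10.20 to 10.43 in the rest of its group. HFD minus LFD for Cyp4b1 was 0.56 (adjusted p = 0.00181) without the first and 0.36 (adjusted p = 0.0357) without the second. Cyp17a1 was at 9.25 in HFD_CR mouse 1, against 5.98 to 6.63. There Hsd3b6, which belongs to the list of steroid-making cell markers whose mean is given above, was at 8.29. Its next highest signals were 6.60 and 6.10 in LFD mice 1 and 4, where Cyp17a1 was at 7.68 and 7.60. Cyp2b10 was at 7.20 in HFD mouse 3, against 5.86 to 6.18, and at 9.60 in LFD mouse 3, against 6.14 to 6.82.

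LFD mouse 2, HFD_CR mouse 2, HFD mouse 3 and LFD mouse 3 are the arrays with raised markers of skeletal muscle or gland epithelium, and HFD_CR mouse 1 is the array with raised markers of male germ cells. The part of such tissue in these values was not tested.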

How the results depend on the processing

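Of 27 calls on named P450 genes, 13 held under every alternative in which single genes were judged. Of 42 uncalled results, 7 passed under at least 1 of these. The adjusted p limit of 0.01, the 1.5-fold limit and the run with every probe set on its own gave member counts only. Counts of members that rose or fell are listed next where they changed by more than a factor of 1.5 or went to 0. Smaller changes are left out of this list. With only genes above the median level, which tests 11090 genes and 17 members, 5 rose in HFD minus LFD, 5 rose and 1 fell in HFD_CR minus HFD. With at least a 1.5-fold difference, 2 rose and 1 fell in HFD minus LFD, 1 rose and 0 fell in HFD_CR minus HFD, and 1 rose and 1 fell in HFD_CR minus LFD. At adjusted p under 0.01, 2 fell in HFD minus LFD and 2 rose in HFD_CR minus LFD. Without LFD mice 3 and 6, 4 fell in HFD minus LFD, 4 rose in HFD_CR minus HFD and 3 rose in HFD_CR minus LFD. In HFD_CR minus HFD, 6 rose after quantile normalization, 5 with array weights, 5 without the 4 arrays high in muscle or gland markers, and 4 when HFD_CR mouse 1, high in germ cell markers, was left out with them, a choice made after seeing the data. That last setting also gave Cyp2d22 a call in HFD_CR minus LFD (0.46, adjusted p = 0.0248). With signals below the array median raised to it, an alternative chosen after seeing the data, 5 rose and 4 fell in HFD minus LFD. Cyp26a1, Cyp2c23, Cyp2b9 and Cyp7b1 then turned to -0.01 (adjusted p = 0.529) in HFD minus LFD and Ch25h to 0.02 (adjusted p = 0.432) in HFD_CR minus HFD, since by construction nearly all their signals sit at the median. Leaving out 1 mouse gave 8 to 10 rises and 4 to 8 falls in HFD minus LFD, 2 to 4 and 2 to 3 in HFD_CR minus HFD, and 4 to 6 and 2 to 3 in HFD_CR minus LFD.

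The mouse number as a replicate block gave 11 rises and 6 falls in HFD minus LFD, 2 and 2 in HFD_CR minus HFD, and 6 and 2 in HFD_CR minus LFD. It ended the call of Cyp4f17 in HFD minus LFD (-0.19, adjusted p = 0.0636) and gave calls to Cyp39a1 in HFD minus LFD (0.19, adjusted p = 0.0311) and Cyp2d22 in HFD_CR minus LFD (0.28, adjusted p = 0.036). Same-numbered mice deviated together (correlation over 0.1) in 5 of 16 pairs, from -0.108 to 0.409, and a mouse matched its own number best in 4, so the numbers are not taken to pair mice. Cyp4v3 passed in HFD_CR minus HFD under 11 of 29 alternatives. Cyp26a1 lost its call without LFD mice 3 and 6 (0.28, adjusted p = 0.0538), as did Cyp2c70 in HFD_CR minus LFD (0.43, adjusted p = 0.0547). Of 61 calls on partner genes, 47 held under every alternative in which single genes were judged. Dim signals limit the sizes for 72 of 95 members.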

Other observations

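Star, the gene of the protein that brings cholesterol into mitochondria for steroid synthesis, rose in HFD_CR against HFD fat (0.34 ± 0.07, adjusted p = 0.00161) and against LFD fat (0.36 ± 0.07, adjusted p = 0.00254), with means of 7.07 in HFD_CR, 6.73 in HFD and 6.71 in LFD fat, below the array median in most mice. With signals under an array's median raised to it, an alternative chosen after seeing the data, the second difference was 0.03 (adjusted p = 0.806). Hsd17b12, which acts in long-chain fatty acid elongation and on estrone, was lower in HFD_CR fat than in HFD fat (-0.26 ± 0.06, adjusted p = 0.00482) and LFD fat (-0.31 ± 0.06, adjusted p = 0.0026). Stard3, a cholesterol carrier of late endosomes, rose in HFD against LFD fat (0.45 ± 0.05, adjusted p = 3.57e-06) and fell by 0.46 ± 0.06 in HFD_CR against HFD fat (adjusted p = 1.99e-05). Rbp4, the retinol carrier that adipocytes secrete, was lower in HFD than in LFD fat (-0.51 ± 0.05, adjusted p = 3.19e-07), and higher in HFD_CR than in HFD fat (0.26 ± 0.05, adjusted p = 0.00144). It was still called lower in HFD_CR than in LFD fat, at signals of 12.79 to 12.99 against 13.08 to 13.20.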
